A study of Mus musculus with 12 samples.

Results

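The genes of the translation initiation and elongation factors were followed from the input RNA of cultured sensory neurons into their HA pull-downs. Every gene whose symbol starts with Eif or Eef and a digit was taken, which gave 60 of the 14177 genes listed in either deposited table. All 60 stood in the table of the libraries labelled Cre-, and 58 stood in that of the libraries labelled Cre+, which lists 9112 genes and does not include Eef1e1 and Eif4ebp3. Each of them had a mean FPKM (fragments per kilobase of transcript and 1000000 mapped reads, as the authors computed it) above 1 in its table, so that 58 were tested for Cre+, 60 for Cre- and 58 for the difference between both. Other genes of these families, such as Eif3j1, Eif3j2 and Eif4e1b, were not analysed here.

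The neurons came from all dorsal root ganglia (DRG) of adult male RiboTag mice. Every animal, controls included, was homozygous for the HA-tagged Rpl22 allele (Rpl22HA/HA), whose tag is switched on by Cre recombinase. Animals labelled Runx3-Cre+ also carried Cre under the control of Runx3, a transcription factor of proprioceptive neurons, and those labelled Cre- carried the tag allele without Cre. Their age is 3 to 6 months in the labels and younger in the methods of the study. Neurons were purified on Percoll, cultured for 24 h in F12 medium with serum, and pooled from 5 mice for each sample. RNA was immunoprecipitated with an antibody against HA (pull-down), and the input was RNA from 10% of the lysate. Each label has 3 libraries of either fraction, 12 in all. The labels do not say that samples came from separate culture rounds, so the p-values measure the spread between these libraries, part of which may be technical.

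Counts on the listed genes ranged from 8886308 to 18633365 per library, and the translation factor genes took 0.682% to 1.21% of them. The driver gene Runx3 passed the test in the pull-downs labelled Cre- and not in those labelled Cre+, where its value was also positive. In the pull-downs labelled Cre+ its level was 22.8, 2.07 and 11.1 normalized counts per 1000000 (the scale of all levels given by library), against 4.28, 2.39 and 5.55 in the inputs (log2 fold change 1.55 ± 0.87 SE, adjusted p = 0.309, edgeR). In the pull-downs labelled Cre- it was 20.8, 36 and 51.4, against 4.7, 1.9 and 2.88 (3.52 ± 0.43 SE, adjusted p = 0.000236, edgeR). The difference of Runx3 between the labels was -1.93 ± 1 SE and did not pass the test (adjusted p = 0.302, edgeR's test of the interaction). All 6 proprioceptor markers examined were enriched in the pull-downs labelled Cre- (beside 6.01% of all genes), and 1 of the 5 listed was in those labelled Cre+ (beside 4.72%). They summed to 1250 to 1550 against 210 to 293 in Cre-, and to 351 to 527 against 179 to 242 in Cre+. In Cre+ 4 of the 5 were positive, among them Ntrk3 at 2.19 ± 0.30 SE, and Spp1 was at -0.95 ± 0.43 SE. Their difference between the labels was negative for 4 of the 5. It passed the test for 2, Etv1 (-2.41 ± 0.42 SE) and Spp1 (-3.6 ± 0.47 SE), and was 0.16 ± 0.32 SE for Ntrk3. The groups are therefore called by their labels throughout, and which neurons a pull-down represents was not settled here. Columns taken here as Cre+ pull-downs are named in a way that, without its punctuation, also spells the titles given to the Cre- samples. Whether labels or tables were exchanged is not known, and an exchange would turn the sign of every difference between the labels and swap which pull-downs are the tagged ones. The study reports significant overlap of the Runx3-Cre+ cultures with Runx3-Cre ganglia, and a poorer match for the Cre- cultures. That comparison runs the way the labels say, used tissue outside these samples and was not repeated here. If the labels hold, the pull-downs labelled Cre- contain no tagged ribosomes, and RNA bound nonspecifically cannot be told apart from ribosome-bound RNA in them. Markers of other cell types were measured beside this. The summed level of Schwann cell and satellite glia markers was 1660 to 2270 in the pull-downs and 2430 to 3720 in the inputs labelled Cre+ (7 of 9 listed, none past the test). In those labelled Cre- it was 1270 to 1680 against 2780 to 4300 (8 of 9 listed). There 3 markers fell past the test, among them Pmp22 by 1.71 (SE 0.23, adjusted p = 0.00056, edgeR). S100b alone was positive, at 0.69 ± 0.16 SE (adjusted p = 0.0114, edgeR). Endothelial markers (4 of 4 listed) summed to 98.8 to 427 in the pull-downs and 47.8 to 83.2 in the inputs labelled Cre+, and to 16.2 to 115 against 60.4 to 89.7 in Cre-, and 1 of them, Tek, rose in Cre+ (3.98 ± 1.09 SE, adjusted p = 0.0855, edgeR). Fibroblast markers summed to 66.8 to 76.5 against 61.5 to 95.4 in Cre+ (4 of 6 listed) and to 25.2 to 89.8 against 77.6 to 95.9 in Cre- (6 of 6), where the 5 tested were negative and Col1a1 fell by 1.34 (SE 0.39, adjusted p = 0.0347, edgeR). Macrophage markers summed to 4.85 to 112 against 25.8 to 68.2 in Cre+ (2 of 5 listed) and to 26.5 to 56.6 against 35.7 to 119 in Cre- (4 of 5). General neuronal markers (8 of 8 listed) summed to 21800 to 24000 against 20400 to 27000 in Cre+ and to 48400 to 56000 against 23500 to 28400 in Cre-. Of these 8, 4 were positive and 4 negative in Cre+, where Tubb3 and Uchl1 fell by 1.19 and 1.85 on the log2 scale and none rose past the test. In Cre- 6 were positive and 2 negative, and Nefh, Nefl, Nefm and Snap25 rose past the test by 1.35, 0.89, 1.29 and 1.17. The difference between the labels was negative for all 8 and passed the test for 5. The part of these marker levels in the values that follow was not tested. In such bulk samples, fewer cells of a type and less RNA per cell cannot be told apart.

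Translation starts when eIF2, in its GTP form, brings the initiator tRNA to the small ribosomal subunit, with eIF1, eIF1A, eIF3 and eIF5. The cap-binding complex of eIF4E, the scaffold eIF4G and the helicase eIF4A recruits this subunit to the mRNA, and the 4E-binding proteins hold eIF4E back. eIF2B reloads eIF2 with GTP, and the eIF2 kinases block that step under stress. eIF5B joins the ribosomal subunits, after which eEF1A delivers aminoacyl-tRNAs and eEF2 moves the ribosome along. In sensory neurons local control of these steps is known from axon growth and injury responses. The comparison asked which of the mRNAs encoding this apparatus were themselves over- or underrepresented in the HA immunoprecipitates.

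Most translation factor mRNAs had a negative log2 fold change from input to pull-down, and few passed the test. Of the 58 tested in the libraries labelled Cre+, 40 were negative and 18 positive (31%, beside 53% of all genes), with a median of -0.60, whereas the median over all 8947 genes tested was 0.08. In the libraries labelled Cre-, 40 of 60 were negative and 20 positive (33.3%, beside 47.5%), with a median of -0.19 beside -0.04 for all 11526 genes. Single values ran from -2.68 (Eif3k) to 1.99 ± 1.31 SE (Eif2ak4) in Cre+ and from -1.17 (Eif4ebp1) to 0.88 (Eif4g3) in Cre-. The value of Eif2ak4 rested on 1 library, since its Cre+ pull-downs measured 54.2, 2.56 and 0.693 against 3.23, 7.42 and 3.76 in the inputs. The median of the translation factors lay 0.57 to 0.78 below that of all genes in Cre+ and 0.15 to 0.19 below it in Cre- over the alternatives run, each library left out in turn included.

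**Figure D1:**
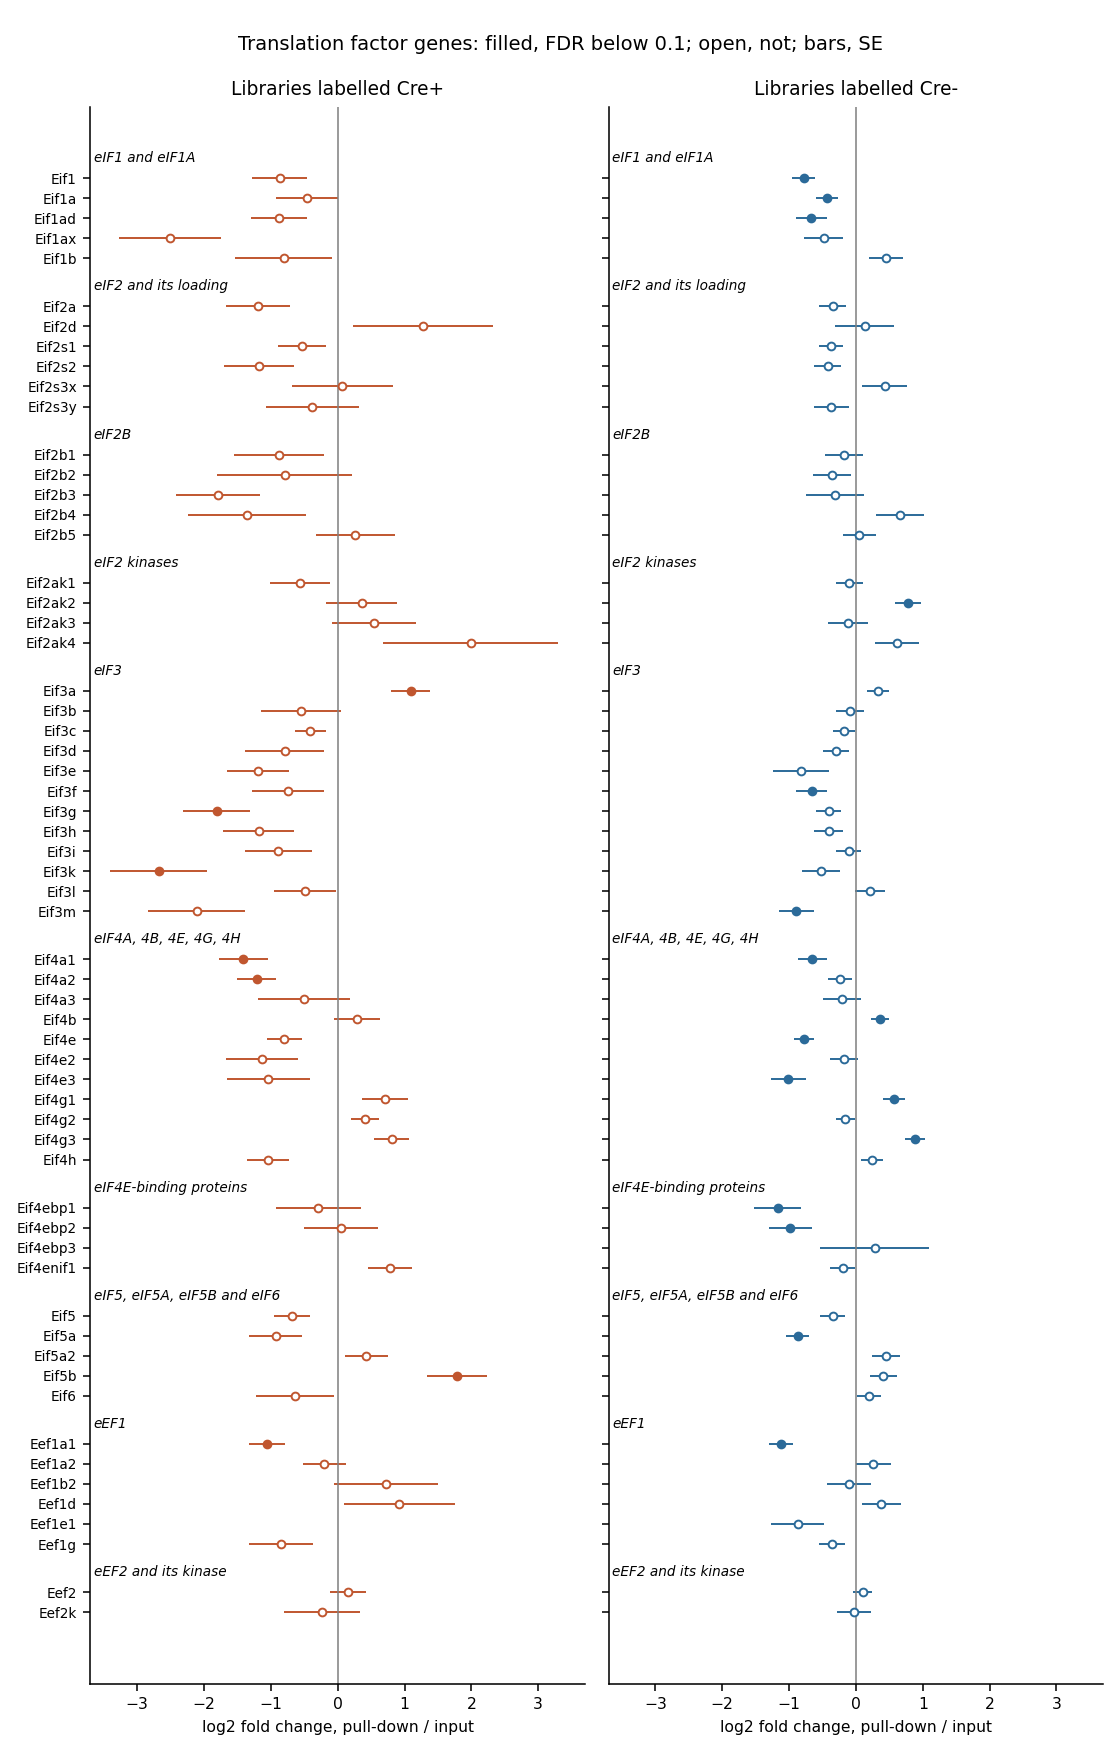
Log2 ratio of pull-down over input (horizontal axis) for each translation factor gene, ordered by complex, in the libraries labelled Cre+ (left) and Cre- (right). Points are edgeR estimates from 3 pull-downs and 3 inputs, bars are standard errors, and filled points have an adjusted p below 0.1; 7 points are filled on the left and 16 on the right.

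Calls required an adjusted p below 0.1 in edgeR's quasi-likelihood test and a change of at least 2-fold. In Cre+, Eif3a and Eif5b were enriched (2 of 58, beside 4.72% of all genes tested), and Eef1a1, Eif3g, Eif3k, Eif4a1 and Eif4a2 were depleted (5 of 58, or 8.62%, beside 2.19%). The same 2 and 5 genes passed without the fold limit, for which all genes gave 4.9% and 2.32%. The calls in Cre+ depended on single libraries. None was left when any of the 3 inputs was left out, and 4 enriched and 11 depleted members were called without pull-down 1 (all genes, 8.98% and 6.04%), 0 and 5 without pull-down 2 (7.31% and 3.96%) and 0 and 1 without pull-down 3 (3.58% and 1.3%). The counts over all genes moved in the same runs, from 422 enriched and 196 depleted to 4 and 0 without input 3. In Cre-, no translation factor was enriched (0 of 60, beside 6.01%), and Eef1a1, Eif4e3 and Eif4ebp1 were depleted (3 of 60, or 5%, beside 5.83%). DESeq2 and edgeR's exact test also enriched none, and 4 of the 60 had a positive value at an unadjusted p under 0.05, beside 1850 of all 11526 genes. When input 2 was left out, 1 of the 3 depleted members, Eef1a1, was called, and the other runs without a library called 2 to 4 (all genes, 5.01% without input 2 and 4.55% to 9.2% in the others). Without the fold limit 4 members rose in Cre- (6.67%, beside 13% of all genes) and 12 fell (20%, beside 11.1%). Counting genes by separation alone, the lowest pull-down exceeded the highest input for 5 members in Cre+ and 7 in Cre- (all genes, 15.5% and 18.2%), and the highest pull-down lay under the lowest input for 20 and 21 (34.5% and 35%, beside 17.9% and 18.6%).

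Factors eIF1 and eIF1A scan with the small subunit. Their 5 genes were grouped by symbol alone, which also brought in Eif1ad. Of the 5, 3 fell in Cre- (beside 11.1% of all genes at an adjusted p below 0.1). None passed the test in Cre+ (beside 4.9% higher and 2.32% lower). The most abundant of them by the authors' mean FPKM in the Cre- table, Eif1, which encodes the start codon fidelity factor, measured 82.3, 75.8 and 35.2 normalized counts per 1000000 in the Cre+ pull-downs and 146, 101 and 105 in the inputs (log2 fold change -0.87 ± 0.41 SE, adjusted p = 0.238, edgeR). In Cre- it measured 77.8, 66.3 and 65.2 against 120, 121 and 119, and fell by 0.78 (SE 0.17, adjusted p = 0.00765, edgeR). All 3 pull-downs were under all 3 inputs in both labels. Eif1a and Eif1ad also fell in Cre-, by 0.43 and 0.67, while Eif1b was positive there at 0.45 ± 0.25 SE, with 53.7, 71.4 and 105 against 65, 44.2 and 59.1. In Cre+ all 5 values were negative (median -0.87). Eif1ax, which encodes eIF1A from the X chromosome, was just outside the call in Cre+ at -2.51 ± 0.76 SE (adjusted p = 0.102, edgeR), with 5.88, 11.5 and 3.58 against 74, 25.2 and 19.7.

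No subunit of eIF2 changed past the threshold in either label. Over all genes 4.9% rose and 2.32% fell in Cre+, and 13% rose and 11.1% fell in Cre-. The 4 Eif2s genes, of which Eif2s1, Eif2s2 and the X and Y copies of Eif2s3 encode the alpha, beta and gamma subunits, had medians of -0.46 in Cre+ and -0.37 in Cre-. Eif2s1 measured 129, 93.4 and 85.9 in the Cre+ pull-downs against 212, 116 and 121 in the inputs (-0.54 ± 0.36 SE), and 130, 117 and 131 against 202, 147 and 138 in Cre- (-0.37 ± 0.18 SE). The fractions overlapped in Cre+ and were apart in Cre-. Eif2b2, the most abundant subunit gene of the exchange factor eIF2B, measured 36.4, 1.59 and 3.69 in the Cre+ pull-downs against 19.7, 27 and 25.6, so that pull-down 1 stood on the other side of the inputs from pull-downs 2 and 3. Its log2 fold change was -0.79 ± 1.01 SE with pull-down 1 and -3.15 ± 0.64 SE without it, a choice made after its values were seen. In Cre- it was 15.4, 16.7 and 18.4 against 20.6, 16.8 and 27.6 (-0.36 ± 0.28 SE).

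Of the 4 eIF2 kinase genes, 1 rose in Cre-, beside 13% of all genes, and none passed the test in Cre+, beside 4.9%. Eif2ak2, encoding the double-stranded RNA sensor PKR, rose by 0.78 ± 0.20 SE in Cre- (adjusted p = 0.019, edgeR), from 42.8, 35.3 and 47 in the inputs to 81.1, 67.9 and 65.7 in the pull-downs. In Cre+ its fractions overlapped at 24.1, 54.7 and 76.3 against 28.6, 39.8 and 52.5 (0.36 ± 0.53 SE). Eif2ak1, encoding the heme-regulated kinase and the most abundant of the 4, measured 39.3, 79.7 and 30.9 against 71.2, 66.2 and 84.4 in Cre+ and 82.4, 81.7 and 95 against 84.9, 117 and 75 in Cre-, with overlap in both.

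eIF3 is the scaffold of the small subunit during initiation. In Cre+ Eif3a, the gene of its largest subunit, was enriched and Eif3g and Eif3k were depleted, and in Cre- Eif3f and Eif3m fell (all genes, 4.9% higher and 2.32% lower in Cre+ and 11.1% lower in Cre-). Of the 12 listed genes, 11 were negative in Cre+ (median -0.84) and 10 in Cre- (median -0.35). The exception in Cre+ was Eif3a, the most abundant of them, at 1000, 1880 and 1520 in the pull-downs against 540, 801 and 727 in the inputs, a rise of 1.09 ± 0.29 SE (adjusted p = 0.0819, edgeR). Every pull-down was above every input there, while in Cre- the levels overlapped at 1080, 1110 and 776 against 772, 864 and 720 (0.33 ± 0.16 SE, adjusted p = 0.189, edgeR), and Eif3l was the other positive value (0.21 ± 0.22 SE). Eif3g, a subunit that binds RNA, fell by 1.81 in Cre+ (SE 0.50, adjusted p = 0.0885, edgeR), with 45.3, 51.2 and 14.7 against 163, 104 and 122. Eif3k, an accessory subunit with the shortest transcript of the complex, fell by 2.68 (SE 0.73, adjusted p = 0.0858, edgeR), with 3, 5.85 and 6.23 against 58.5, 15.8 and 22.6. In Cre-, Eif3g measured 104, 99.4 and 98.5 against 159, 132 and 109, and Eif3k 14.3, 12.9 and 18.9 against 25.2, 20 and 20.8. Neither passed the test in Cre- (-0.41 and -0.52), although the fractions did not overlap. Eif3f and Eif3m, subunits of the core, fell in Cre- by 0.66 and 0.89. A difference between both labels was not called for any of the 12 (all genes, 2.33% higher and 2.11% lower in Cre+).

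Among the 11 genes of the cap-binding complex and its helpers, Eif4a1 and Eif4a2 fell in Cre+, and in Cre- Eif4a1, Eif4e and Eif4e3 fell and Eif4b, Eif4g1 and Eif4g3 rose. Over all genes 2.32% fell in Cre+, and 11.1% fell and 13% rose in Cre-. Eif4e, which encodes the cap-binding protein, measured 208, 159 and 163 in the Cre+ pull-downs against 338, 280 and 308 in the inputs (-0.80 ± 0.26 SE, adjusted p = 0.116, edgeR), and 161, 153 and 162 against 265, 250 and 298 in Cre-, where it fell by 0.77 (SE 0.15, adjusted p = 0.00434, edgeR). The fractions were apart in both labels, and the estimated difference between the labels was 0.00 ± 0.26 SE. Its relative Eif4e3 fell in Cre- by 1.01 (SE 0.26, adjusted p = 0.0177, edgeR), with 27.3, 28.1 and 34.8 against 39.9, 65.7 and 75.7. In Cre+ Eif4e3 was 7.66, 27.4 and 41.9 against 54.7, 46.8 and 56.3 (-1.04 ± 0.62 SE). Exons of other genes cover 14.8% of Eif4e3 in the annotation, and no source says whether reads were counted by strand.

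Both genes of the cap-complex helicase fell in Cre+. Eif4a1 went from 214, 143 and 151 in the inputs to 45.5, 60.8 and 84 in the pull-downs (-1.41 ± 0.36 SE, adjusted p = 0.0738, edgeR). Eif4a2, its neuron-rich paralog, went from 573, 357 and 390 to 154, 226 and 191 (-1.21 ± 0.29 SE, adjusted p = 0.0654, edgeR). Exons of other genes cover 13.3% of Eif4a2 and 6.62% of Eif4a1 in the annotation. In Cre-, Eif4a1 fell by 0.65 (SE 0.21, adjusted p = 0.0517, edgeR), with 129, 92.9 and 90.6 against 206, 151 and 132, and Eif4a2 overlapped at 266, 388 and 404 against 474, 388 and 384 (-0.24 ± 0.18 SE). In Cre- the adjusted p of Eif4a1, which did not reach the 2-fold limit, was 0.1 or more in 3 of the 6 runs without a library. Eif4b, a helper of the helicase, lay at the threshold in Cre- with 0.36 ± 0.14 SE (adjusted p = 0.099996, edgeR).

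The scaffolds Eif4g1 and Eif4g3 rose in Cre-, by 0.57 ± 0.17 SE (adjusted p = 0.0384, edgeR) and 0.88 ± 0.15 SE (adjusted p = 0.00223, edgeR). Eif4g3 measured 543, 529 and 505 in those pull-downs against 315, 303 and 240, and 507, 442 and 361 against 206, 286 and 253 in Cre+ (0.81 ± 0.26 SE, adjusted p = 0.114, edgeR). It was separated in the same direction in both. Eif4g2, which encodes a scaffold without the eIF4E-binding site and was the most abundant gene of this group, measured 1940, 2560 and 2430 against 1690, 1820 and 1700 in Cre+ (0.41 ± 0.21 SE, and -0.02 when scaled by library size alone). In Cre- it was 1620, 1890 and 1870 against 2190, 1880 and 1940 (-0.16 ± 0.14 SE).

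**Figure D2:**
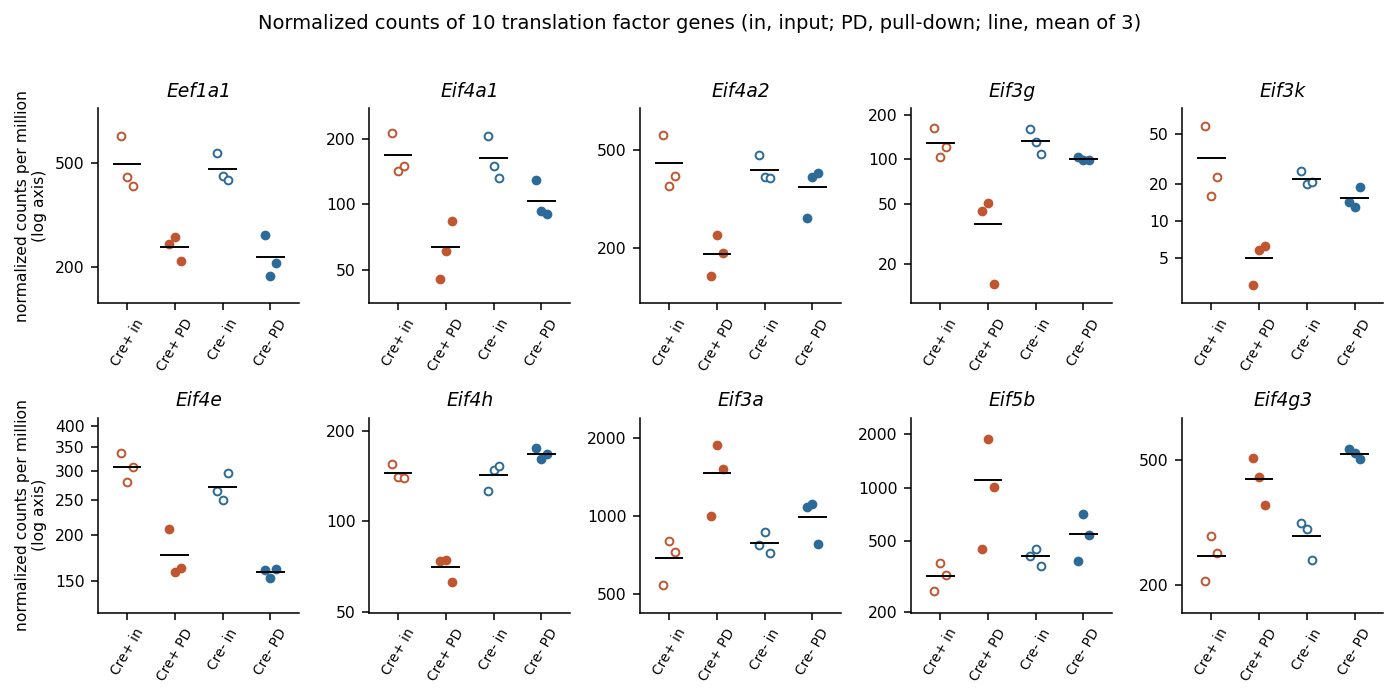
Normalized counts per 1000000 (log axis) of 10 translation factor genes in each of the 12 libraries, by label and fraction; open points are inputs, filled points pull-downs and lines the means of 3. Eef1a1 and Eif4e lie lower in all pull-downs than in all inputs of their label, and Eif4h does so in the libraries labelled Cre+ alone.

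Eif4h, which encodes a cofactor of eIF4A, was the 1 member whose enrichment differed between the labels. Its pull-downs measured 73.8, 74.4 and 62.7 in Cre+ against 155, 140 and 139 in the inputs, and 175, 161 and 167 in Cre- against 126, 148 and 153. All Cre+ pull-downs were thus under their inputs and all Cre- pull-downs above theirs. The log2 fold changes were -1.04 ± 0.31 SE (adjusted p = 0.1004, edgeR) and 0.24 ± 0.16 SE (adjusted p = 0.328, edgeR), and their difference was -1.25 ± 0.28 SE (adjusted p = 0.0538, edgeR's test of the interaction), a sign that holds only if the labels do. Over all 9006 genes tested for the difference, 2.11% were lower and 2.33% higher in Cre+. No member was higher by edgeR. Of the 58 tested, 4 had a positive difference at an unadjusted p under 0.05, beside 995 of all 9006 genes, and DESeq2 called 2 higher, beside 7.2%. The call of Eif4h held in 4 of 12 runs without a library, namely those without a Cre+ pull-down or without Cre- pull-down 1, and was lost in the other 8, with adjusted p up to 0.169 (edgeR). The difference itself stayed at -1.31 to -1.17 over the 12 runs. Without Cre+ pull-down 1, 4 members were higher and 7 lower (all genes, 7.81% and 7.41%), without Cre+ pull-down 2, 1 and 6 (8.29% and 8.06%), and without Cre+ pull-down 3, 0 and 2 (5.74% and 5.31%).

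Of the 3 genes of eIF4E repressors, Eif4ebp1 and Eif4ebp2 fell in Cre-, beside 11.1% of all genes. Eif4ebp1 fell by 1.17 (SE 0.35, adjusted p = 0.0383, edgeR), with 5.19, 9.42 and 5.43 against 14.8, 16.3 and 13.9. Eif4ebp2, encoding the form that prevails in brain, fell by 0.98 (SE 0.32, adjusted p = 0.053, edgeR), with 10.3, 20.4 and 17.4 against 24.8, 42.5 and 27.7. Eif4ebp2 did not reach the 2-fold limit, and for each of both genes the adjusted p was 0.1 or more in 2 of the 6 runs without a library. In Cre+ Eif4ebp1 measured 4.44, 11.3 and 7.85 against 7.51, 11.4 and 10, and Eif4ebp2 15.9, 46.7 and 33.2 against 33.1, 25.6 and 33.8. Their fractions overlapped there, with values of -0.29 ± 0.64 SE and 0.05 ± 0.56 SE, the latter turning to -0.35 when scaled by library size alone. The differences between the labels, 0.91 ± 0.69 SE and 1.07 ± 0.64 SE, did not pass the test. Eif4ebp3 was close to the limit of detection in Cre-, at 1.45, 1.02 and 1.27 against 0.392, 2.06 and 0.606, and shares 67.3% of its exon length with another gene. Eif4enif1, encoding the transporter that takes eIF4E into the nucleus, measured 149, 104 and 118 against 84.2, 66.4 and 65.7 in Cre+, with no overlap (0.78 ± 0.33 SE, adjusted p = 0.20, edgeR). In Cre- it was 75.6, 53.5 and 72.4 against 74, 80.7 and 76.7 (-0.20 ± 0.19 SE).

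Among the 5 genes of subunit joining and later steps, Eif5b rose in Cre+ (beside 4.9% of all genes) and Eif5a fell in Cre- (beside 11.1%). Eif5b, encoding the GTPase of subunit joining, rose in Cre+ from 262, 375 and 323 to 450, 1870 and 1010 (1.79 ± 0.45 SE, adjusted p = 0.072, edgeR), and its pull-downs differed widely among themselves. In Cre- it overlapped at 384, 712 and 539 against 413, 454 and 364 (0.41 ± 0.20 SE), and the difference between the labels was 1.43 ± 0.54 SE (adjusted p = 0.183, edgeR). Rev1 and Eif5b share 16.9% of the exon length of Eif5b. Eif5a, the hypusine-bearing factor that relieves stalled ribosomes, fell in Cre- by 0.87 (SE 0.17, adjusted p = 0.00399, edgeR), with 166, 198 and 195 against 405, 298 and 320. In Cre+ it measured 115, 267 and 191 against 546, 290 and 253, where pull-down 2 exceeded input 3 (-0.93 ± 0.40 SE, adjusted p = 0.20, edgeR).

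Of the elongation factors, Eef1a1 fell in both labels and Eef2 in neither (all genes, 2.32% lower in Cre+ and 11.1% in Cre-). Eef1a1, which encodes the common carrier of aminoacyl-tRNA, measured 244, 261 and 210 in the Cre+ pull-downs against 639, 442 and 411 in the inputs, which is 0.478 of the input level (-1.06 ± 0.27 SE, adjusted p = 0.0723, edgeR). In Cre- it measured 266, 185 and 206 against 551, 447 and 430, or 0.46 of the input level (-1.12 ± 0.18 SE, adjusted p = 0.00121, edgeR). The adjusted p stayed under 0.1 in all 6 runs without a library in Cre- and in 2 of 6 in Cre+. Eef1a1 has near-identical pseudogenes, so its counts from uniquely mapped reads are uncertain. Pseudogene symbols are also annotated in RefSeq for Eif1 (3), Eef2 (1) and Eif2s3x (1), and their part in the counts was not tested. Eef1a2, the paralog of neurons and muscle, overlapped in both labels, at 144, 86.3 and 99.1 against 122, 123 and 134 in Cre+ (-0.20 ± 0.32 SE) and 109, 182 and 183 against 86.3, 150 and 161 in Cre- (0.26 ± 0.26 SE). Eef2, the translocase, had one of the highest mean FPKM of all members, 243 in the Cre+ table and 250 in the Cre- table. It measured 1040, 601 and 653 against 707, 704 and 639 in Cre+ (0.16 ± 0.27 SE) and 866, 769 and 766 against 763, 787 and 690 in Cre- (0.10 ± 0.14 SE), with values of -0.30 and -0.13 when scaled by library size alone. Eef1b2 and Eef1d, encoding the exchange factors of eEF1A, differed between the Cre+ pull-downs more than between fractions. Eef1b2 was at 33.5, 556 and 554 against 370, 155 and 168, and Eef1d at 6.11, 92.5 and 125 against 54.8, 29.1 and 34.1, so that pull-down 1 was below all inputs for both. Without that library, a choice made after its values were seen, their log2 fold changes were 1.3 and 1.5. In Cre- they overlapped, with log2 fold changes of -0.11 and 0.38.

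Ratios within paralog pairs give each library as its own reference. The log2 ratio of Eef1a2 to Eef1a1 counts was -2.39, -1.85 and -1.62 in the Cre+ inputs and -0.76, -1.59 and -1.08 in the pull-downs. In Cre- it was -2.67, -1.58 and -1.42 in the inputs and -1.29, -0.02 and -0.17 in the pull-downs. The pull-downs were higher without overlap in both labels. The ratio of Eif4a2 to Eif4a1 overlapped between fractions, with means of 1.37 ± 0.05 and 1.61 ± 0.37 (SD, n = 3) in the Cre+ inputs and pull-downs and 1.37 ± 0.17 and 1.76 ± 0.61 in those of Cre-. Of the 4 other pairs computed, 2 were singled out after the values were seen. The ratio of Eif2s3y to Eif2s3x was lower in the Cre- pull-downs without overlap, at 0.74, 1 and 1.18 against 1.69, 1.93 and 1.67 in the inputs, and overlapped in Cre+. The ratio of Eif5a2 to Eif5a was -1.18, -0.79 and -0.80 in the Cre- inputs and -0.04, 0.36 and 0.68 in the pull-downs, apart in all libraries, and in Cre+ 1 pull-down (-0.54) lay just under the highest input (-0.53). No test was run on these ratios. Transcripts of Eef1a2 and Eef1a1 have 2084 and 1794 bases, and those of Eif4a2 and Eif4a1 2708 and 1774. Eif5a2 and Eif5a have 5027 and 1437, and Eif2s3y and Eif2s3x 1836 and 3647. The part of transcript length in the ratios was not tested.

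**Figure D3:**
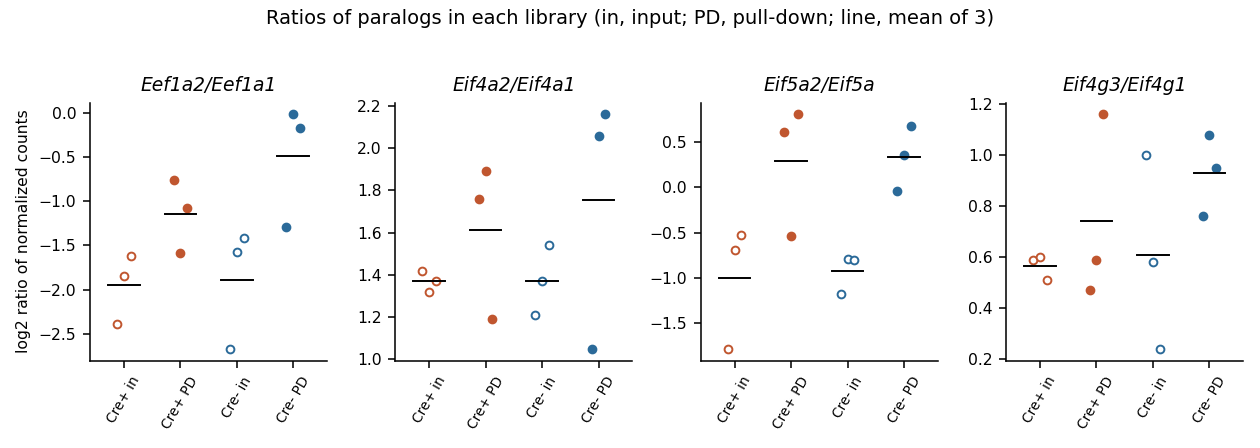
Log2 ratio of normalized counts of 4 paralog pairs in each of the 12 libraries; open points are inputs, filled points pull-downs and lines the means of 3. The ratio of Eef1a2 to Eef1a1 is higher in the pull-downs without overlap in both labels, and that of Eif4a2 to Eif4a1 overlaps.

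Several elongation factor mRNAs, with Eif4b and subunits of eIF3, are known to carry a terminal oligopyrimidine (TOP) tract, a C at the cap followed by a run of C and T, through which their translation is held back when mTOR is inactive. The 9 members listed as TOP mRNAs had medians of -0.75 in Cre+ and -0.36 in Cre-, beside -0.56 and -0.18 for the other members. By sign they were not lower than the others. In Cre+ 4 of the 9 were positive (44.4%, beside 28.6%), with values from -1.19 to 0.92. In Cre- 3 were (33.3%, beside 33.3%). Of the ribosomal protein mRNAs, the main TOP class, the 52 tested in Cre+ had a median of -1.49 and the 75 in Cre- of -0.99. In Cre+ 5 were depleted (9.62%, beside 2.19% of all genes) and in Cre- 23 (30.7%, beside 5.83%), and none was enriched in either (beside 4.72% and 6.01%). RefSeq start sites on GRCm38.p6 were available for 48 members, 5 of them on the TOP list. The windows of those 5, with that of Eif2s3x, are printed from 10 bases before to 20 bases from the annotated start, in transcript orientation. Capitals mark a tract that begins with C at the start and goes on with at least 4 further C or T, on the transcript strand only.
Eef1a1 (chr9:78481705-78481734, minus strand): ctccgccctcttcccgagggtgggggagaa
Eef1b2 (chr1:63176821-63176850, plus strand): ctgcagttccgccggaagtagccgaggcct
Eef2 (chr10:81176621-81176650, plus strand): aaggccgggcgttgacgtcagcggtctctt
Eif4b (chr15:102073763-102073792, plus strand): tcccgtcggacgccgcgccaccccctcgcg
Eif3f (chr7:108934405-108934434, plus strand): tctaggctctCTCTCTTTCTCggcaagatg
Eif2s3x (chrX:94212632-94212661, minus strand): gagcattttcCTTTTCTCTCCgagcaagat

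Such a tract stood at an annotated start of 2 of the 48 members, Eif3f and Eif2s3x, each 11 bases long (4.17%), beside 3.02% of the 10611 listed genes with a start and 23.6% of the ribosomal protein genes. By single starts it was 3.17% of those of the members and 2.51% of all in the table. Annotated starts can lie away from the used ones, and the absence of the letters says nothing about the mRNA. Eif3f fell in Cre- by 0.66 (SE 0.23, adjusted p = 0.0734, edgeR), and Eif2s3x measured 10.4, 10.8 and 10 in those pull-downs against 6.47, 8.17 and 8.57, at 0.43 ± 0.34 SE.

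**Figure D4:**
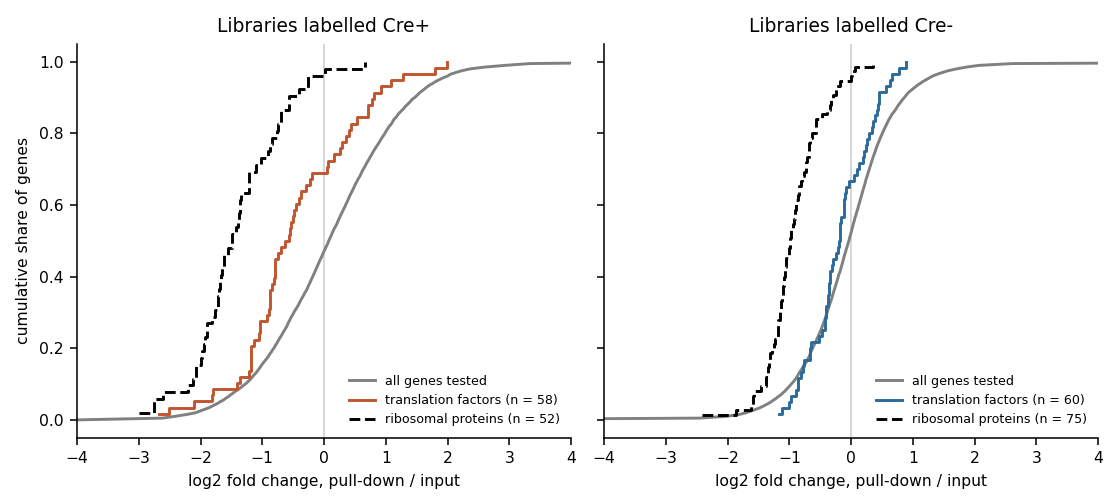
Cumulative share of genes (vertical axis) by log2 ratio of pull-down over input (horizontal axis) for the translation factors, the cytosolic ribosomal proteins and all genes tested, in the libraries labelled Cre+ (left) and Cre- (right). The translation factor curve lies between both others over most of its range, with medians of -0.60 and -0.19.

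Partners of the factors outside the Eif and Eef names were listed beside them. Of 32 listed initiation, elongation and termination partners, 29 were tested in Cre+ with a median of -0.15, and none passed an adjusted p below 0.1 (beside 4.9% of all genes higher and 2.32% lower), while 1 positive and 1 negative value had an unadjusted p under 0.05. In Cre-, 31 were tested with a median of 0.02, of which 3 rose (9.68%, beside 13% of all genes) and 5 fell (16.1%, beside 11.1%) at an adjusted p below 0.1. Pabpc1, the poly(A)-binding protein that bridges to eIF4G, fell by 1.15 (SE 0.16, adjusted p = 0.00066, edgeR), as did Ppp1r15a, which targets the phosphatase of eIF2 (SE 0.23, adjusted p = 0.00558, edgeR). The helicase gene Ddx3x rose by 0.86 ± 0.15 SE (adjusted p = 0.00201, edgeR). In Cre+ the value of Pabpc1 was 0.19 ± 0.28 SE, and its difference between the labels was 1.37 ± 0.33 SE (adjusted p = 0.066, edgeR). Of the mitochondrial translation factors, 6 tested in Cre+ had a median of 0.45 and 9 in Cre- of -0.02. None was called in either (all genes, 4.72% enriched and 2.19% depleted in Cre+, and 6.01% and 5.83% in Cre-). In Cre- 1 of the 9, Gfm1, passed without the fold limit (0.76 ± 0.20 SE, adjusted p = 0.0194, edgeR, beside 13% of all genes higher).

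The fold changes of the members went with transcript length, and so did those of other genes. Across the 58 members of Cre+ the Spearman correlation of log2 fold change and length was 0.58, beside 0.54 across 8839 other genes, and in Cre- it was 0.36 across 60 members and 0.36 across 11399 other genes. Genes share the libraries and are not independent, so these are descriptions. In Cre+, the 20 members under 2000 bases had a median of -0.86 beside -0.84 for the 1586 other genes of that length, and 1 of the 20 was positive. The 23 members from 2000 to 4000 bases had -0.55 beside -0.16, and the 15 over 4000 bases 0.41 beside 0.58. In Cre-, the medians of the 3 classes were -0.37, -0.18 and -0.03 for 21, 24 and 15 members, beside -0.37, -0.08 and 0.21 for the other genes. Of the members depleted in Cre+, Eif3k and Eif3g have 909 and 1101 bases, Eif4a1 and Eef1a1 1774 and 1794, and Eif4a2 2708. The enriched Eif3a and Eif5b have 5125 and 7797. In Cre- the depleted Eef1a1, Eif4ebp1 and Eif4e3 have 1794, 1997 and 2515. Some members lay apart from this order, as Eif1ax with 5172 bases at -2.51 in Cre+ and Eif4ebp2 with 5784 at -0.98 in Cre-. Eif4e, with 4991 bases, was at -0.80 in Cre+ and -0.77 in Cre-. The part of transcript length in the fold changes was not tested.

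**Figure D5:**
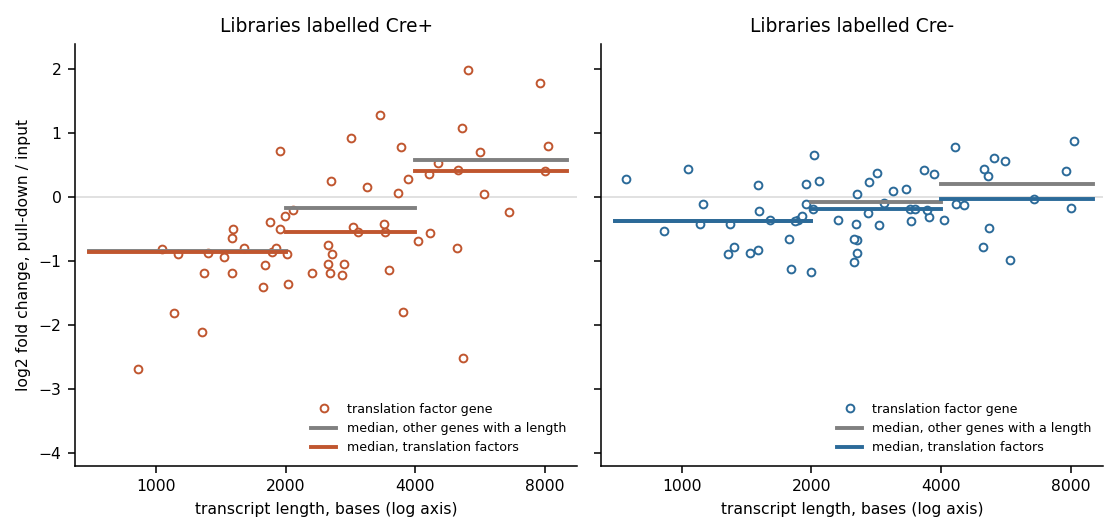
Log2 ratio of pull-down over input (vertical axis) against transcript length in bases (log axis) for each translation factor gene (open points), in the libraries labelled Cre+ (left) and Cre- (right). Lines give the median of the members and of the other genes in 3 length classes; under 2000 bases they are -0.86 and -0.84 on the left and -0.37 and -0.37 on the right.

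The Cre+ pull-downs were the least reproducible libraries for these genes. Pearson's correlation of the members' log2 levels was 0.709 to 0.911 between Cre+ pull-downs and 0.941 to 0.987 between their inputs, and 0.965 to 0.989 and 0.97 to 0.982 in Cre-. The median coefficient of variation of the members was 49.3% in the Cre+ pull-downs, 21.1% in their inputs, 16.2% in the Cre- pull-downs and 14.3% in their inputs. Over all genes the first of these was 53.1%, and the others were 19.6% to 22.8%.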

How the data were processed

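The authors aligned reads to mm10 with STAR and deposited, for each genotype, a table of fragment counts by gene, obtained with HTSeq and the refSeq annotation from uniquely mapped reads. The deposited mean FPKM over the libraries of a table was used as a filter (above 1) and to rank members by level. The authors' own log2 fold changes, p-values and FDR, and 18 further columns of normalized counts or ratios by sample, were not used. Column names of the Cre+ libraries tie them to a group only.

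Counts were scaled by TMM and tested with edgeR 4.0.16 in R 4.3.3 (estimateDisp, glmQLFit with robust and legacy settings, glmQLFTest), with Benjamini-Hochberg adjustment over all genes of the comparison. Pull-down was tested against input on the 6 libraries of a genotype, and the difference on all 12, without a replicate block. The SE is the fold change over the root of F. Normalized counts are per 1000000. The difference was called at an adjusted p below 0.1 with no fold limit. Values of every library are given for the members called, those with a difference, the member with the highest mean FPKM in each complex group, Eif4e and its repressors, and 2 paralog pairs. Other members named were chosen after their values were seen. The members and lists were chosen with earlier results of these data known. Of the marker lists, 1 gene is not reported here. Lengths and overlaps are from GENCODE M21, and starts from RefSeq GRCm38.p6. The fits were tested on simulated data. Alternatives were DESeq2 1.42.0, edgeR's exact test, a filter of 10 counts in 3 libraries, no filter, upper-quartile scaling, library size alone, 12 libraries in one fit, a replicate block, an FDR of 0.05, other fold limits and each library left out. Figures were drawn with matplotlib.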

Additional observations from a re-analysis of the deposited data

Results flagged for a closer look

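For Eif4h the change from input to pull-down differed between the libraries labelled Cre+ and Cre- by -1.25 on the log2 scale (SE 0.28, adjusted p = 0.0538, edgeR's test of the interaction over 9006 genes). All 3 pull-downs were lower than all 3 inputs in Cre+, and all 3 were higher in Cre-. The adjusted p of this difference was 0.0153 to 0.169 (edgeR) over the 12 runs without a library, and its value -1.31 to -1.17. The sign holds only if the labels were not exchanged, which is not known. The study's comparison of the cultures with ganglia, given above, runs the way the labels say. No cause was tested. No test for a library far from its group was run, with 3 libraries in each group.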

How the results depend on the processing

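In Cre+ the 2 enriched and 5 depleted members became 0 and 15 when scaled by library size alone (all genes, 2.15% and 7.81%), and 0 enriched with upper-quartile scaling (2.78%). Depleted members were 8 with DESeq2 (6.35%), 8 with the exact test (5.11%) and 14 with all 12 libraries in one fit (10.6%), and both counts were 0 at an FDR below 0.05. Without 1 library there were 0 to 4 enriched and 0 to 11 depleted. The median of the members was -0.81 with upper-quartile scaling and -1.05 by library size alone, where the median of all genes moved from 0.08 to -0.12 and -0.36. In Cre- the 3 depleted members became 10 by library size alone (all genes, 10.7%, with a median of the members of -0.43 and of all genes of -0.27 in place of -0.04), 1 with all 12 libraries in one fit (1.92%) and 12 with no fold limit, which also gave 4 enriched. Without 1 library there were 1 to 4 depleted. For the difference, DESeq2 called 2 higher and 2 lower (7.2% and 5.17%), an FDR below 0.05 called 0 lower, and runs without 1 library called 0 to 4 higher and 0 to 7 lower. The cause was not tested.

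Signs were followed for the genes named by rule in the methods and not for those chosen after their values were seen. Those that turned had not passed the test. By upper-quartile scaling and library size alone in Cre+ these were Eef2 (-0.06 and -0.30) and Eif4ebp2 (-0.09 and -0.35), and by library size alone also Eif4g2 (-0.02) and, in Cre-, Eef2 (-0.13). Without 1 library they were Eif4ebp2 (-0.30 to 0.42), Eef2 (-0.09 to 0.33) and Eif4ebp1 (-0.62 to 0.03) in Cre+, and Eif4ebp3 (-0.09 to 1.29) and Eif2ak1 (-0.23 to 0.11) in Cre-.

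Changes of the quasi-likelihood method chosen after seeing the data, without robust estimation and with edgeR's newer method, left the counts of called members within 1.5 times. With a replicate block in Cre-, 0 members were enriched and 2 depleted (median -0.21), beside 704 and 792 of all 11526 genes. Eif4e3, at -0.97 (adjusted p = 0.0159, edgeR), did not reach the 2-fold limit there. Deviations of pull-downs and inputs with the same number correlated at 0.07, 0.03 and 0.13. The input was 10% of the lysate, so libraries of the same number may share a lysate, and such weak correlations do not decide it. No paired analysis was run for Cre+ and for the difference, since the Cre+ columns are tied to a group only, and their numbers here only tell the libraries apart. Depth limits Eif4ebp3 most, with 4 counts in 1 library.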
